A study of Mus musculus with 9 samples.

Results

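The 34 genes described here, called postsynaptic density genes, mostly encode the protein scaffold and the signaling machinery on the receiving side of excitatory synapses. The 2 neuronal pentraxin genes among them encode proteins that gather AMPA receptors from outside. All 34 genes were followed in mouse cerebral cortex 1 day after a transient stroke. They were taken by gene name from a table of 37893 genes, and each of the 34 names matched 1 entry. RNA was sequenced from 9 mice in 3 groups of 3. The sham_WT mice were wild type and had a sham operation. IR_WT mice were wild type and had transient occlusion of the middle cerebral artery (tMCAO), with 60 min of ischemia and 1 day of reperfusion. The IR_Matn3_ko mice had the same ischemia and reperfusion and carried a knockout of Matn3, the gene of the matrix protein matrilin-3. Tissue of both ischemic groups came from the cortex around the infarct, so injury and the sampled area cannot be told apart. The labels give no age or sex of the mice and no allele name, and knockout mice without ischemia were not analysed here, so that an effect of genotype alone cannot be told apart from one after ischemia. The design text names the comparisons of IR_WT with sham_WT and of IR_Matn3_ko with IR_WT. The comparison of IR_Matn3_ko with sham_WT was added after values had been seen. It shares the sham_WT libraries with the first, and its groups differ in injury, genotype and library set (described below) together.

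The postsynaptic density is a dense protein layer under the membrane of the dendritic spine. Membrane-associated guanylate kinases (the Dlg genes, Dlg4 encoding PSD-95) hold glutamate receptors, the Dlgap (SAPAP) proteins link them to the Shank proteins, and Shank and Homer proteins reach further to the actin skeleton and to metabotropic receptors. Calcium entering through receptors of the NMDA type activates calmodulin and CaMKII, a kinase whose capture at the spine is a step of synaptic strengthening, and neurogranin (Nrgn) binds calmodulin at low calcium.

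Libraries held 53400376 to 68370527 counts, and levels are given in CPM, each library's counts scaled by its total and its TMM factor. By counting error an unseen gene could still lie below 0.0439 to 0.0562 CPM, here relative to the library totals without the TMM factor. Matn3 itself, by replicate, had 0, 4 and 26 counts in the sham_WT mice, 33, 12 and 48 counts in the IR_WT mice and 0, 17 and 0 counts in the IR_Matn3_ko mice, so it was too low to check the genotype labels, and the second knockout library is called here the library labelled IR_Matn3_ko 2. Markers of cortical excitatory neurons summed to 1447 to 2016 CPM over the 9 libraries. The libraries fell into sets that overlapped with the groups. Small intestine markers summed to 10.8 to 13.1 CPM in sham_WT and IR_WT replicate 1 but to 80.04 to 409 CPM in the other 5 libraries, while B cell markers ran from 206 to 319 CPM in the former and from 9.37 to 24.2 CPM in the latter. A fit with a term for this library set is given beside the results. In that fit IR_WT differs from sham_WT through IR_WT replicate 1 alone. No IR_Matn3_ko library was in the set of the sham_WT libraries, so in that fit their comparison also depends on IR_WT replicate 1.

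All 34 genes passed the expression filter of at least 0.5 FPKM (fragments relative to gene length and to all mapped fragments) in at least 3 libraries, as did 17247 genes in all. On this per-length scale, Nrgn was the most abundant member with a mean of 503 FPKM over the 9 libraries (range 269 to 683), and Camk2a, the alpha subunit of CaMKII, followed at 350.1 FPKM (range 193 to 433). Their ranges overlapped. The pentraxins Nptxr (114 FPKM) and Nptx1 (72.6 FPKM) came next, then Camk2b at 59.5 FPKM. Dlg4, Baiap2, Cnih2, Dlgap3 and Camk2g lay close together between 39.5 and 42.4 FPKM, with overlapping ranges over the libraries. At the low end, Homer2, Camk2d and Homer3 had 3.96, 3.48 and 1.98 FPKM.

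In wild-type cortex after ischemia, Shank3 was the single member that fell past the threshold, and Shank1, Dlgap3, Nrgn, Cnih3 and Nptxr had fold changes of the same size or larger that missed it. In the knockout cortex after ischemia, 14 of the 34 genes were lower than in sham_WT, among them members of the Shank, Dlg, Dlgap, Homer and CaMKII families together with Nrgn, Kalrn and Sorcs3. The shares of all 17247 genes called lower were 1.52% for IR_WT and 10.7% for IR_Matn3_ko, each against sham_WT. No member differed past the threshold between the ischemic knockout and the ischemic wild type, where 0 of the 17247 genes passed. The test is edgeR's quasi-likelihood test with Benjamini-Hochberg adjustment over the 17247 genes and a threshold of 0.05, and fold changes are log2 with the standard error (SE).

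For IR_WT against sham_WT, 1 of 34 members was lower (background 1.52% of all genes tested) and 0 were higher (background 2.54%), beside 4.06% of genes called in either direction; DESeq2 called 3 lower, Shank1, Shank3 and Dlgap3 (background 4.08%). The count of lower members was 0 without sham_WT replicate 2 or 3 or any 1 IR_WT replicate, and 4 without the library labelled IR_Matn3_ko 2. Over all genes, 83 to 445 were called lower in the former fits and 416 in the latter, beside 263 with all 9 libraries. At an unadjusted p under 0.05, 11 members were lower (background 8.64%) and 2 were higher (background 10.5%). Of the 34, 25 had a fold change below 0 (background 49.7%), and the median log2 fold change was -0.15 beside 0.00 over all genes. All 3 IR_WT libraries lay below all 3 sham_WT libraries for 9 members (background 12.5%) and above them for 2 (background 13.1%). With the library set term 1 member, Dlgap3, was lower (background 0.661%) and 0 were higher (background 1.7%). In bulk tissue, fewer neurons and less RNA of these genes per neuron cannot be told apart. The 12 pan-neuronal markers summed to 9004 to 9422 CPM in sham_WT, 7297 to 8647 CPM in IR_WT and 5665 to 7378 CPM in IR_Matn3_ko. In IR_WT against sham_WT, 1 of the 12 was called lower, and 3 had a fold change above 0. The sums of 9 excitatory neuron markers overlapped, at 1828 to 1921 CPM in sham_WT and 1636 to 2016 CPM in IR_WT. Their median log2 fold change was -0.089, and that of 7 inhibitory neuron markers was -0.00085, with 0 called in either list. The part of these markers in the results was not tested.

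For IR_Matn3_ko against IR_WT, 0 of 34 members passed (background 0 of 17247 genes by edgeR), and with the library set term 0 passed as lower (background 0.029%) or as higher (background 0.168%). DESeq2 called 2 members lower, Kalrn and Dlg3, with 1.75% of genes as its background. At an unadjusted p under 0.05, 5 members were lower (background 6.75%) and 0 were higher (background 6.59%). The fold change was below 0 for 27 of 34 (background 50.2%), with a median of -0.13 beside 0.00 over all genes. The knockout libraries lay wholly below IR_WT for 7 members (background 8.44%) and above for 1, Camk2d (background 9.42%).

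For IR_Matn3_ko against sham_WT, 14 of 34 members (41.2%) were lower beside a background of 10.7%, and 0 were higher beside 11.8%, with 22.5% of genes called in either direction. DESeq2 called 17 members lower (background 13.4%). The edgeR count of lower members was 8 without sham_WT replicate 2 and 9 without sham_WT replicate 1 or IR_Matn3_ko replicate 3. Over all genes, 1085, 1042 and 1150 were called lower in these fits, in that order, beside 1850 with all 9 libraries. At an unadjusted p under 0.05, 19 members were lower (background 17.5%) and 2 were higher (background 18.6%), and 26 had a fold change below 0 (background 50%). All 3 knockout libraries lay below all 3 sham_WT libraries for 18 members (background 20.8%) and above them for 2, Baiap2 and Lrrtm2 (background 21.6%). The median log2 fold change was -0.32 beside 0.00 over all genes. With the library set term it was -0.50 and 4 members passed as lower, Shank1, Shank3, Dlgap3 and Sorcs3 (background 2.64%), and 0 as higher (background 3.57%). That fit compares these groups by way of IR_WT, with IR_WT replicate 1 as the only IR_WT library in the set of sham_WT. Scaling moved these values as well. With TPM values, without scaling factors and with FPKM + 0.1, the median of all genes stood at 0.16, 0.14 and 0.12 and the median of the members at -0.15, -0.18 and -0.20, with 5, 7 and 7 members lower. The mitochondrially encoded mRNAs summed to 82921 to 99258 CPM in sham_WT, 59201 to 93362 CPM in IR_WT and 59974 to 70211 CPM in IR_Matn3_ko, and their part was not tested.

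**Figure D1:**
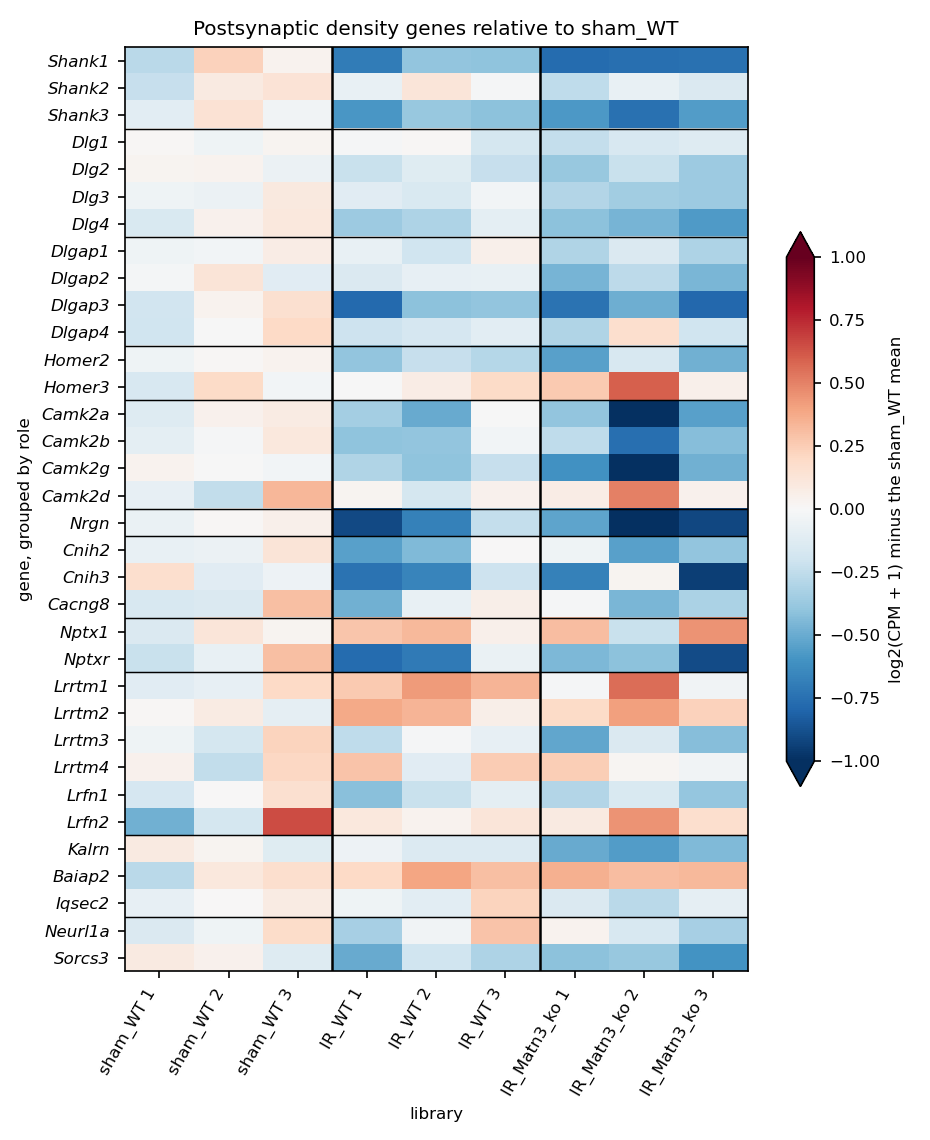
Each cell is the log2(CPM + 1) value of 1 of the 34 genes (rows, grouped by role) in 1 of the 9 libraries (columns) minus the mean of the 3 sham_WT libraries; blue is lower and red is higher, and colors saturate at -1 and 1. The blue of the Shank1, Shank3, Dlgap3 and Nrgn rows runs through all 6 ischemic libraries, the median member of each ischemic library lies between -0.38 and -0.048, and Lrrtm2 and Baiap2 are red in the same columns.

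**Figure D2:**
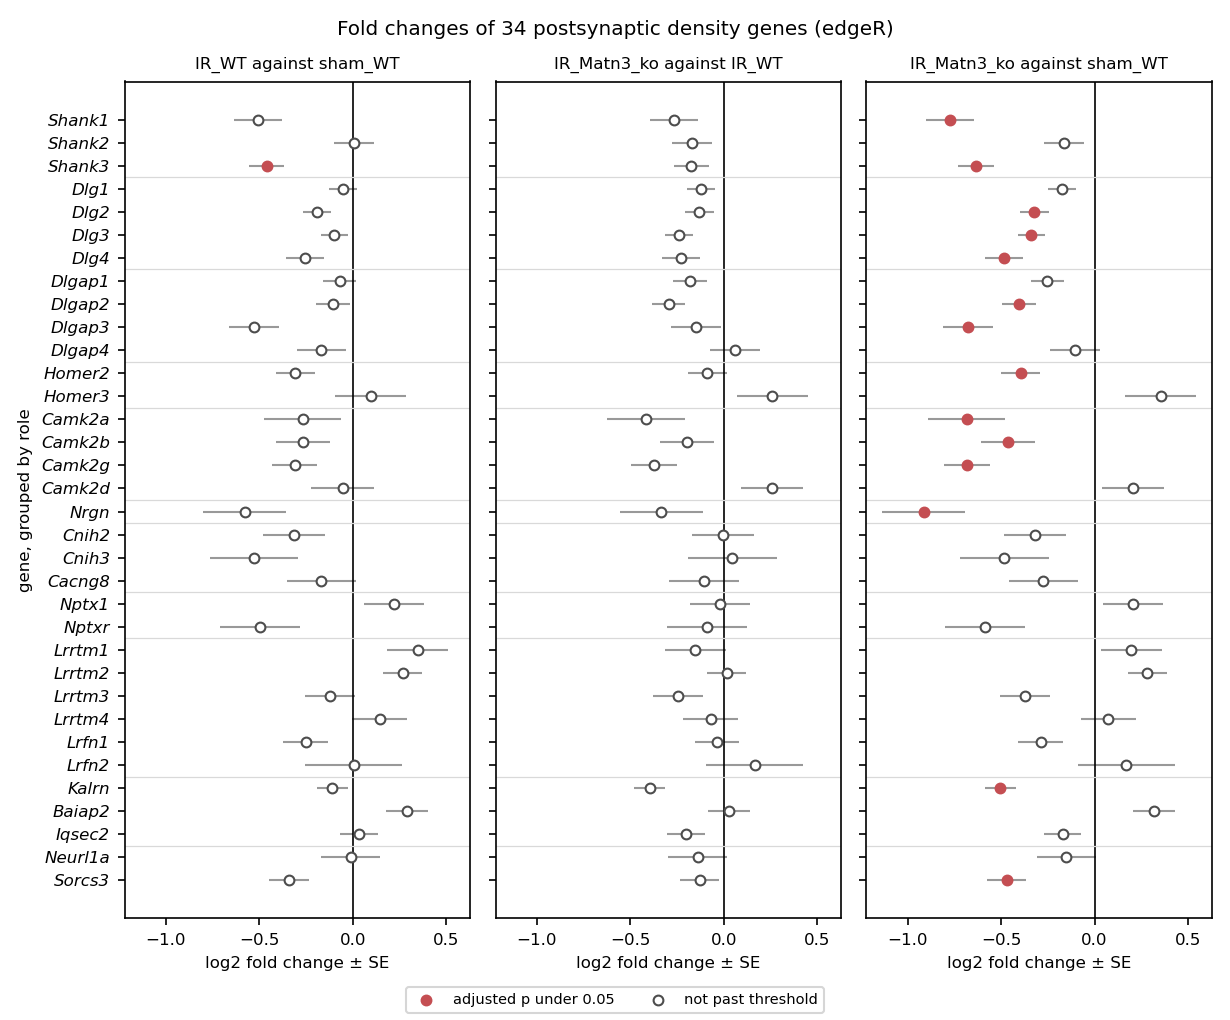
Log2 fold change (points) with its SE (bars) of each of the 34 genes in the comparisons IR_WT against sham_WT, IR_Matn3_ko against IR_WT and IR_Matn3_ko against sham_WT; filled points have an adjusted p under 0.05 by edgeR. The panels hold 1, 0 and 14 filled points, all to the left of 0.

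The Shank genes encode the master scaffolds of the deep layer of the density. Shank3 (chromosome 15, 89499623 to 89560261, GRCm38) was at 199, 237 and 208 CPM in the sham_WT libraries (replicates 1 to 3), 143, 164 and 161 CPM in the IR_WT libraries and 143, 127 and 145 CPM in the IR_Matn3_ko libraries. Each ischemic library lay below each sham_WT library, and the knockout and wild-type ischemic ranges overlapped. The log2 fold change was -0.46 ± 0.095 for IR_WT against sham_WT (edgeR adjusted p = 0.0291) and -0.63 ± 0.095 for IR_Matn3_ko against sham_WT (adjusted p = 0.00183). The first of these calls was lost when any 1 library of sham_WT or IR_WT was left out (adjusted p up to 0.103), and in 7 of the 12 alternatives, among them the library set fit (adjusted p = 0.055). The second passed in all 12 alternatives and all 9 fits without 1 library.

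Shank1 (chromosome 7, 44310253 to 44360572) was at 411, 583 and 507 CPM in the sham_WT libraries (replicates 1 to 3), 304, 377 and 375 CPM in the IR_WT libraries and 290.2, 293 and 295 CPM in the IR_Matn3_ko libraries. The groups did not overlap, with sham_WT highest and IR_Matn3_ko lowest. Against sham_WT, Shank1 differed by -0.51 ± 0.13 in IR_WT, which missed the threshold (adjusted p = 0.0609), and fell in IR_Matn3_ko by 0.77 ± 0.13 on the log2 scale (adjusted p = 0.00308), a call that held in all 12 alternatives and 9 fits without 1 library. Between the ischemic groups the difference was -0.27 ± 0.13 (adjusted p = 0.409). Shank2 passed the threshold in no comparison, at 174, 218 and 225 CPM in sham_WT, 195, 223 and 203 CPM in IR_WT and 172, 194 and 185 CPM in IR_Matn3_ko. Its groups overlapped between IR_WT and sham_WT, with log2 fold changes of 0.01 ± 0.11 for IR_WT (adjusted p = 0.985) and -0.16 ± 0.11 for IR_Matn3_ko (adjusted p = 0.298) against sham_WT.

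**Figure D3:**
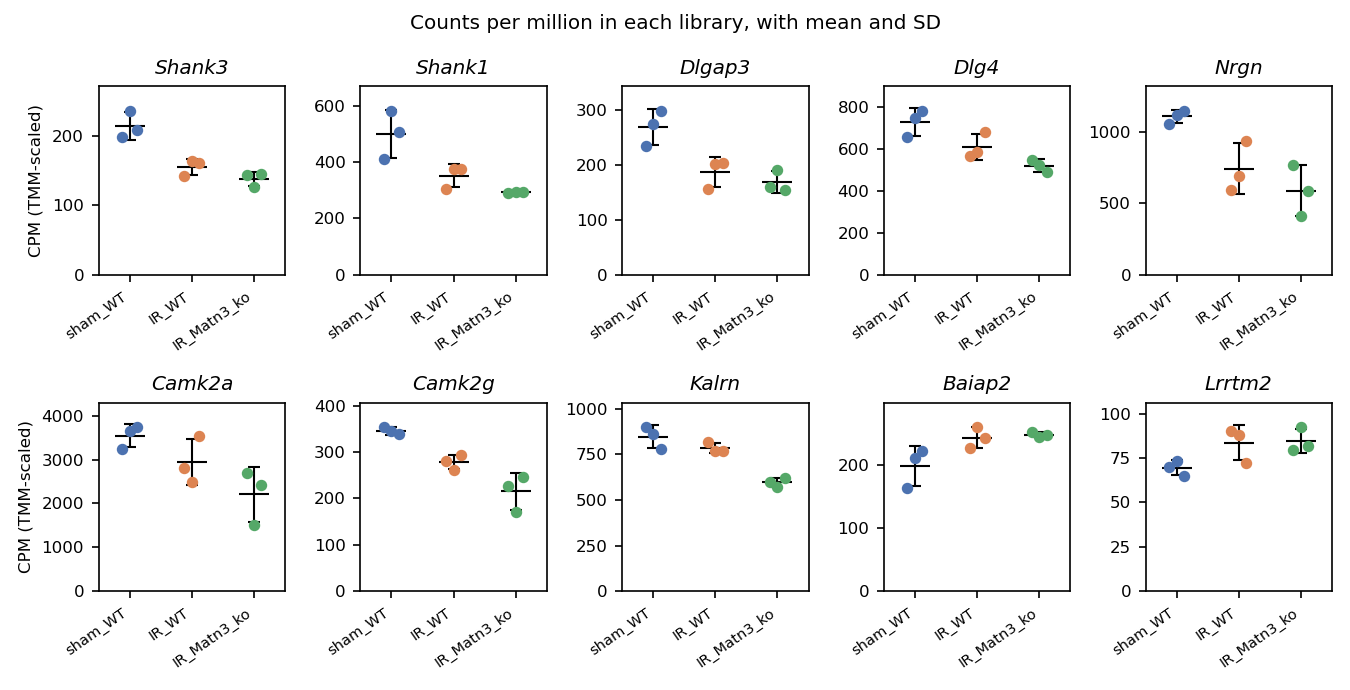
CPM values (TMM-scaled, linear axes from 0) of 10 genes, with 1 point per library and the mean and SD of the 3 libraries of each group in black. For Shank3, Shank1, Dlgap3, Nrgn and Camk2g all ischemic libraries lie below all sham_WT libraries, for Kalrn the 3 IR_Matn3_ko libraries (573 to 621 CPM) lie below the other 6, and for Baiap2 the 6 ischemic libraries lie above sham_WT.

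To show the start regions of members that were lower together, the 250 bases before the annotated start of Shank3 (chr15:89499358-89499607, plus strand), Dlgap3 (chr4:127172630-127172879, plus strand) and Nrgn (chr9:37552746-37552995, minus strand) are printed 5′ to 3′ on the gene's strand, from RefSeq on GRCm38.p6. The RefSeq starts of Dlgap3 and Nrgn lie inside the gene as the table gives it. Capitals mark matches, on either strand, to the GC box GGGCGG, the CCAAT box CCAAT, the cAMP response half-site TGACG and the AP-1 site TGANTCA, where N is any base. None of these motifs contains another.
Shank3: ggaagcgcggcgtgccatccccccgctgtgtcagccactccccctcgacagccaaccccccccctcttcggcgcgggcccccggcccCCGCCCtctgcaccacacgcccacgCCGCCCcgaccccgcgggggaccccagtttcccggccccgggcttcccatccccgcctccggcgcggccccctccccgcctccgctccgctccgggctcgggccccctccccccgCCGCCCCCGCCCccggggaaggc
Dlgap3: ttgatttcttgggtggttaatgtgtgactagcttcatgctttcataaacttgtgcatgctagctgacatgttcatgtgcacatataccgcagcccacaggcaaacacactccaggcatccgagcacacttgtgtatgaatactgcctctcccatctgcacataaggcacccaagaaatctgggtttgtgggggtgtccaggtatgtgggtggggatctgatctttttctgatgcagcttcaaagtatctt
Nrgn: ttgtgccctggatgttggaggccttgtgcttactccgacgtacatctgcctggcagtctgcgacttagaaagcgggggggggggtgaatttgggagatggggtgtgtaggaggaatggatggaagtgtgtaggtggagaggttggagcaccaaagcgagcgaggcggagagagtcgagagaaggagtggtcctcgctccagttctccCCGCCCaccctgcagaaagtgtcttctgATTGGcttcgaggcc
These start regions differ in composition: that of Shank3 is 82.4% G or C with 31 CpG and 4 GC boxes, that of Dlgap3 is 46.8% G or C with 2 CpG and 0 matches, and that of Nrgn is 58.4% G or C with 11 CpG, 1 GC box and 1 CCAAT box. RefSeq start regions were at hand for 24 of the 34 members, as 36 entries. The GC box was in 44.4% of these 36 and in 32.7% of all 32851 entries, the CCAAT box in 27.8% and 33.8%, the cAMP half-site in 8.33% and 17.8%, and the AP-1 site in 0 of 36 and 6.75%. A match is a description of the letters and not a measured site.

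The Dlg genes encode the receptor-anchoring scaffolds, and 3 of the 4, Dlg2, Dlg3 and Dlg4, fell in IR_Matn3_ko against sham_WT. Dlg4, whose product PSD-95 is the best known scaffold of the density, was at 655, 749 and 784 CPM in the sham_WT libraries (replicates 1 to 3), 564, 587 and 679 CPM in the IR_WT libraries and 548, 526 and 489.7 CPM in the IR_Matn3_ko libraries. The knockout libraries lay below both other groups, while 1 IR_WT library reached into the sham_WT range. Its log2 fold change was -0.48 ± 0.10 for IR_Matn3_ko against sham_WT (edgeR adjusted p = 0.00943), -0.26 ± 0.10 for IR_WT against sham_WT (adjusted p = 0.201) and -0.23 ± 0.10 between the ischemic groups (adjusted p = 0.374).

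Dlg3, encoding SAP102, was at 159, 158 and 175 CPM in sham_WT, 152, 147 and 161 CPM in IR_WT and 133, 129 and 127 CPM in IR_Matn3_ko. Again the knockout libraries lay below the other 6, which overlapped. It fell by 0.34 ± 0.072 against sham_WT (adjusted p = 0.0102) and differed by -0.24 ± 0.072 from IR_WT (adjusted p = 0.208; DESeq2 adjusted p = 0.0477). Dlg2, encoding PSD-93, was at 434, 437 and 411 CPM in sham_WT, 365, 392 and 365 CPM in IR_WT and 328, 365 and 333 CPM in IR_Matn3_ko. All ischemic libraries lay below sham_WT, the ischemic groups overlapped, and the fold change was -0.32 ± 0.076 for the knockout (adjusted p = 0.015) and -0.19 ± 0.076 for IR_WT (adjusted p = 0.198). Dlg1, encoding SAP97, did not pass in any comparison, at -0.18 ± 0.075 for IR_Matn3_ko against sham_WT (adjusted p = 0.12). The Dlg2 call was lost without sham_WT replicate 1 or 2 or IR_Matn3_ko replicate 3 (adjusted p up to 0.0565). The calls of Dlg2, Dlg3 and Dlg4 were lost with the library set term (adjusted p = 0.167, 0.173 and 0.0696), in which their fold changes were -0.37, -0.36 and -0.65. Of the 12 alternatives, the Dlg2 call held in 6, the Dlg3 call in 7 and the Dlg4 call in 9. Dlg2 and Dlg3 missed the threshold on the 3 FPKM and TPM scales and without scaling factors, Dlg4 with TPM, and Dlg2 and Dlg4 with quantile normalization. The values nearest to 0 were -0.05 for Dlg2 (adjusted p = 0.707, quantile normalization), -0.15 for Dlg3 (adjusted p = 0.214, TPM) and -0.20 for Dlg4 (adjusted p = 0.106, quantile normalization), each from limma.

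Among the Dlgap genes, the adaptors between Dlg and Shank proteins, Dlgap3 and Dlgap2 fell in IR_Matn3_ko against sham_WT. Dlgap3 (chromosome 4, 127169204 to 127237022) was at 234, 274 and 299 CPM in the sham_WT libraries (replicates 1 to 3), 156, 202 and 203 CPM in the IR_WT libraries and 159.6, 191 and 155 CPM in the IR_Matn3_ko libraries. All 6 ischemic libraries lay below sham_WT, and the ischemic groups overlapped. Its log2 fold change was -0.53 ± 0.13 for IR_WT (edgeR adjusted p = 0.0609) and -0.67 ± 0.13 for IR_Matn3_ko (adjusted p = 0.00721) against sham_WT. With the library set term both were larger, at -0.79 and -1.05. Both of these values depend on IR_WT replicate 1, the only IR_WT library in the set of sham_WT. The knockout call missed the threshold in 1 of the 12 alternatives, limma on TPM (adjusted p = 0.053).

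Dlgap2 was lowest in the knockout libraries, at 54.9, 61.1 and 51.4 CPM in sham_WT, 50.2, 52.5 and 52.8 CPM in IR_WT and 40.2, 46.3 and 40.2 CPM in IR_Matn3_ko. It fell by 0.40 ± 0.091 against sham_WT (adjusted p = 0.0127, and 0.052 without sham_WT replicate 2), a call that held in 7 of the 12 alternatives and was lost on the 3 FPKM and TPM scales, without scaling factors and with the library set term. The difference from IR_WT was -0.30 ± 0.091 (adjusted p = 0.214). Dlgap1 and Dlgap4 did not pass in any comparison, with fold changes of -0.25 and -0.11 for IR_Matn3_ko against sham_WT. Dlgap4 was spread widely within both of these groups. The library labelled IR_Matn3_ko 2 stood at 285 CPM beside 205 and 222 CPM, and the sham_WT libraries were at 221, 254 and 291 CPM. In fits without 1 library its fold change ran from -0.26 to -0.0009.

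Homer proteins cross-link Shank with metabotropic glutamate receptors. Homer2 was at 62.5, 65 and 65.9 CPM in the sham_WT libraries (replicates 1 to 3), 48.8, 54.7 and 52.8 CPM in the IR_WT libraries and 43.8, 57.4 and 45.8 CPM in the IR_Matn3_ko libraries. All ischemic libraries lay below sham_WT, with the library labelled IR_Matn3_ko 2 the highest of the 6. The log2 fold change was -0.31 ± 0.10 for IR_WT (edgeR adjusted p = 0.14) and -0.39 ± 0.10 for IR_Matn3_ko (adjusted p = 0.0245) against sham_WT, the second call being lost without any 1 sham_WT replicate or without IR_Matn3_ko replicate 1 or 3 (adjusted p up to 0.0841). It held in 6 of the 12 alternatives and was lost on the 3 FPKM and TPM scales, without scaling factors, without the expression filter and in the library set fit (adjusted p up to 0.305). Homer3, the lowest member, was at 5.88, 7.8 and 6.54 CPM in sham_WT, 6.7, 7.09 and 7.81 CPM in IR_WT and 8.24, 10.6 and 6.99 CPM in IR_Matn3_ko, a fold change of 0.35 ± 0.19 for the knockout against sham_WT (adjusted p = 0.212). Of the exon bases of Homer3, 25.4% are shared with Ddx49 on the other strand, and whether counting used the strand is not stated, so its value is uncertain. Homer1, the best known paralog but no member here, fell by 0.84 on the log2 scale in IR_Matn3_ko against sham_WT (adjusted p = 0.0109).

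Of the 4 CaMKII subunit genes, Camk2a, Camk2b and Camk2g fell in IR_Matn3_ko against sham_WT, and Camk2d did not pass. Camk2a, encoding the main subunit in forebrain excitatory neurons, was at 3238, 3648 and 3738 CPM in the sham_WT libraries (replicates 1 to 3), 2798, 2496 and 3527 CPM in the IR_WT libraries and 2684, 1498 and 2429.9 CPM in the IR_Matn3_ko libraries. The knockout libraries lay below all sham_WT libraries, but IR_WT replicate 3 stood within the sham_WT range and the library labelled IR_Matn3_ko 2 stood far below the other 8. The fold change was -0.68 ± 0.21 (edgeR adjusted p = 0.0405). Without the library labelled IR_Matn3_ko 2 the call was lost, as it was without IR_Matn3_ko replicate 3 or any 1 sham_WT replicate; the adjusted p reached 0.107. The calls of Camk2a and of Camk2b, described next, held in 5 of the 12 alternatives each. Both were lost on the 3 FPKM and TPM scales, without scaling factors, with quantile normalization, without the expression filter and with the library set term, with an adjusted p of up to 0.257 for Camk2a and 0.184 for Camk2b. For IR_WT against sham_WT, Camk2a was at -0.27 ± 0.21 (adjusted p = 0.527).

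Camk2b, encoding the actin-bundling beta subunit, was at 656, 698 and 758 CPM in sham_WT, 530.2, 534 and 691 CPM in IR_WT and 589, 417 and 524 CPM in IR_Matn3_ko. As for Camk2a, the library labelled IR_Matn3_ko 2 was lowest and IR_WT replicate 3 lay within the sham_WT range, and the fold change for IR_Matn3_ko against sham_WT was -0.46 ± 0.14 (adjusted p = 0.0442). This call was lost without any 1 sham_WT replicate, IR_WT replicate 2, IR_Matn3_ko replicate 3 or the library labelled IR_Matn3_ko 2 (adjusted p up to 0.13). Camk2g, encoding the gamma subunit known as a shuttle of calmodulin to the nucleus, was at 354, 344 and 338 CPM in sham_WT, 279.9, 262 and 294 CPM in IR_WT and 227, 172 and 247 CPM in IR_Matn3_ko. Its 3 groups did not overlap, with IR_Matn3_ko lowest. It fell by 0.68 ± 0.12 in IR_Matn3_ko against sham_WT (adjusted p = 0.00428), a call lost among the 12 alternatives with the library set term alone (adjusted p = 0.12), and was -0.31 ± 0.12 for IR_WT (adjusted p = 0.195). Camk2d, the subunit best known from heart, was at 77, 68.5 and 103 CPM in sham_WT, 83.1, 72 and 83.9 CPM in IR_WT and 85.8, 116 and 84.2 CPM in IR_Matn3_ko, with the library labelled IR_Matn3_ko 2 highest of the 9 and a fold change of 0.20 ± 0.17 for the knockout against sham_WT (adjusted p = 0.413).

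Nrgn had the largest fold change of the 34 members in IR_WT and in IR_Matn3_ko, each against sham_WT. The gene (chromosome 9, 37544492 to 37552904) was at 1055, 1118 and 1147 CPM in the sham_WT libraries (replicates 1 to 3), 591, 694 and 938 CPM in the IR_WT libraries and 768, 407 and 588 CPM in the IR_Matn3_ko libraries. All ischemic libraries lay below sham_WT, the ischemic groups overlapped and both were spread widely. The fold change was -0.58 ± 0.22 for IR_WT (edgeR adjusted p = 0.187), which missed the threshold, and -0.91 ± 0.22 for IR_Matn3_ko (adjusted p = 0.0174). The second call was lost without sham_WT replicate 2 or 3 or IR_Matn3_ko replicate 3 (adjusted p up to 0.0522), and with the library set term the change was -1.38 (adjusted p = 0.0625).

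None of the 3 genes for AMPA receptor partners passed the threshold in any comparison. Cnih2, a cornichon that slows AMPA receptor closing, was at 68.9, 69.6 and 79.6 CPM in sham_WT, 49.4, 53.2 and 72.8 CPM in IR_WT and 70.3, 49.5 and 55 CPM in IR_Matn3_ko. The ischemic libraries ranged from well below sham_WT to within it, and the fold changes against sham_WT were -0.31 ± 0.17 for IR_WT (edgeR adjusted p = 0.338) and -0.32 ± 0.17 for IR_Matn3_ko (adjusted p = 0.195). For Cnih3, its paralog, all IR_WT libraries lay below sham_WT, at 39, 41.2 and 56.9 CPM beside 74.1, 60.5 and 63.3 CPM, yet the test gave -0.53 ± 0.24 (adjusted p = 0.26), and the library labelled IR_Matn3_ko 2 stood at 67.1 CPM. Cacng8, encoding the auxiliary subunit TARP gamma-8, was -0.27 ± 0.19 for IR_Matn3_ko against sham_WT (adjusted p = 0.321).

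Neuronal pentraxins gather AMPA receptors from outside the synapse. The pentraxin receptor Nptxr was at 698, 775 and 1007 CPM in sham_WT, 477, 499 and 779.8 CPM in IR_WT and 597, 615 and 439.6 CPM in IR_Matn3_ko. IR_WT replicate 3 reached the sham_WT range while the other 5 ischemic libraries lay below it, and the change was -0.50 ± 0.21 for IR_WT (edgeR adjusted p = 0.24) and -0.59 ± 0.21 for IR_Matn3_ko (adjusted p = 0.0768). Nptxr shares 17.2% of its exon bases with Npcd on the same strand and is uncertain to that extent. Nptx1 had a fold change of the other sign, 0.22 ± 0.16 for IR_WT (adjusted p = 0.498) and 0.20 ± 0.16 for IR_Matn3_ko (adjusted p = 0.397) against sham_WT, with overlapping groups.

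The 6 leucine-rich repeat adhesion genes, whose products bind presynaptic partners across the cleft, had no member past the threshold in any comparison and a median (log2) of 0.07 for IR_WT and 0.12 for IR_Matn3_ko against sham_WT. Lrrtm2, the most abundant of them and a ligand of neurexins, was at 69.9, 73.4 and 65.1 CPM in sham_WT, 90.3, 88.1 and 72.3 CPM in IR_WT and 79.4, 92.4 and 81.7 CPM in IR_Matn3_ko. The knockout libraries lay above all sham_WT libraries, and IR_WT replicate 3 lay within the sham_WT range. The change was 0.27 ± 0.10 for IR_WT (edgeR adjusted p = 0.191) and 0.28 ± 0.10 for IR_Matn3_ko (adjusted p = 0.0764). Lrrtm1 lay higher in all 3 IR_WT libraries (38, 42.6 and 40.1 CPM) than in sham_WT (29.1, 29.6 and 36.2 CPM), at 0.35 ± 0.16 (adjusted p = 0.281). Lrrtm3 and Lrfn1 were -0.37 and -0.29 for the knockout against sham_WT, and Lrrtm4 and Lrfn2 were 0.07 and 0.17 (edgeR adjusted p = 0.074, 0.11, 0.76 and 0.679). Lrrtm4 shares 25.1% of its exon bases with Gm4409 on the other strand.

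Among the regulators of actin and of Arf GTPases, Kalrn fell and Baiap2 lay on the other side. Kalrn, encoding kalirin, an exchange factor that enlarges spines (chromosome 16, 33969073 to 34573532), was at 898, 861 and 778 CPM in the sham_WT libraries (replicates 1 to 3), 815, 769 and 768 CPM in the IR_WT libraries and 595, 573 and 621 CPM in the IR_Matn3_ko libraries. The 3 knockout libraries lay below the other 6, while IR_WT overlapped with sham_WT. The fold change was -0.50 ± 0.083 for IR_Matn3_ko against sham_WT (edgeR adjusted p = 0.0028) and -0.11 ± 0.082 for IR_WT against sham_WT (adjusted p = 0.517). The knockout call held in 10 of the 12 alternatives; it was lost with quantile normalization in limma, at -0.15 (adjusted p = 0.294), and in the library set fit, at -0.42 (adjusted p = 0.149). Between the ischemic groups it was -0.40 ± 0.083, with the smallest p of the 34 members in that comparison (unadjusted p = 0.00077, edgeR adjusted p = 0.12; DESeq2 adjusted p = 0.000314). With the library set term, which rests on IR_WT replicates 2 and 3 here, it was -0.37 (adjusted p = 0.132).

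Baiap2, encoding the membrane-bending protein IRSp53, was at 163, 211 and 221 CPM in sham_WT, 226, 259 and 242 CPM in IR_WT and 252, 244 and 246 CPM in IR_Matn3_ko. All 6 ischemic libraries lay above all sham_WT libraries. The fold changes were 0.29 ± 0.11 for IR_WT (edgeR adjusted p = 0.19) and 0.32 ± 0.11 for IR_Matn3_ko (adjusted p = 0.0678; DESeq2 adjusted p = 0.0349) against sham_WT. Baiap2 and Lrrtm2 passed as higher in IR_Matn3_ko without scaling factors and on the FPKM and TPM scales, where the median of all genes was also shifted upward. Iqsec2, an Arf exchange factor of the density, did not pass, at -0.17 ± 0.10 for the knockout against sham_WT (adjusted p = 0.254).

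Sorcs3, a sorting receptor of the Vps10 family, was at 55.7, 54 and 47.9 CPM in sham_WT, 36.7, 45.4 and 42.2 CPM in IR_WT and 39.3, 40.2 and 34.2 CPM in IR_Matn3_ko. All ischemic libraries lay below sham_WT, and it fell by 0.47 ± 0.11 in IR_Matn3_ko (edgeR adjusted p = 0.0127, and 0.0532 without sham_WT replicate 1) and was -0.34 ± 0.11 in IR_WT (adjusted p = 0.109). The knockout call held in 8 of the 12 alternatives and was lost on the 3 FPKM and TPM scales and without scaling factors. Neurl1a, a ubiquitin ligase of the Neuralized family, was at 113, 121 and 142 CPM in sham_WT, 98.7, 122 and 152 CPM in IR_WT and 128, 111 and 99 CPM in IR_Matn3_ko, with overlapping groups and a change of -0.15 ± 0.16 for the knockout against sham_WT (adjusted p = 0.533). Of its exon bases 9.47% are shared with another gene on the same strand.

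Within a family the share of each paralog in the summed FPKM does not depend on the scaling between libraries. Shank2 made up 20.5, 19.5 and 22.2% of the Shank family in sham_WT, 28.2, 27.2 and 25.6% in IR_WT and 26.3, 29.6 and 27.6% in IR_Matn3_ko. This share was larger in all 6 ischemic libraries than in any sham_WT library, while the CPM of Shank2 was not, and Shank1 had a smaller share, 53.1 ± 1.91% in sham_WT, 48.5 ± 1.58% in IR_WT and 46.9 ± 0.388% in IR_Matn3_ko (SD, n = 3). Dlgap3 took 46.4, 48.4 and 48.8% of the Dlgap family in sham_WT, 37.2, 43.8 and 41.7% in IR_WT and 40.8, 39.7 and 39.2% in IR_Matn3_ko. Here too the ischemic libraries lay apart from sham_WT, and Dlgap4 had a larger share in the ischemic libraries, from 24.3 ± 1.02% to 26.8 ± 1.19% and 29.9 ± 1.82%.

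Camk2d, the rare CaMKII subunit, had 0.602 ± 0.112% of the CaMKII family in sham_WT, 0.707 ± 0.0753% in IR_WT and 1.18 ± 0.578% in IR_Matn3_ko (SD, n = 3). The library labelled IR_Matn3_ko 2 had 1.85% Camk2d, beside 0.822 and 0.879% in the other knockout libraries. Camk2a had 77.8 ± 0.881% and 77.9 ± 1.27% in sham_WT and IR_WT and 75.4 ± 2.93% in IR_Matn3_ko, where its range overlapped with both. Camk2b had 12.3 to 12.9% in sham_WT, 12.1 to 13.4% in IR_WT and 13.5 to 16.4% in IR_Matn3_ko, which lay above both. Its mean CPM was nonetheless lowest in IR_Matn3_ko, at 704 in sham_WT, 585 in IR_WT and 510 in IR_Matn3_ko. Each difference without overlap had p = 0.1 in a two-sided exact permutation test, the smallest p that 3 against 3 libraries allow, and 0.321 after Benjamini-Hochberg adjustment over the 45 shares tested.

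**Figure D4:**
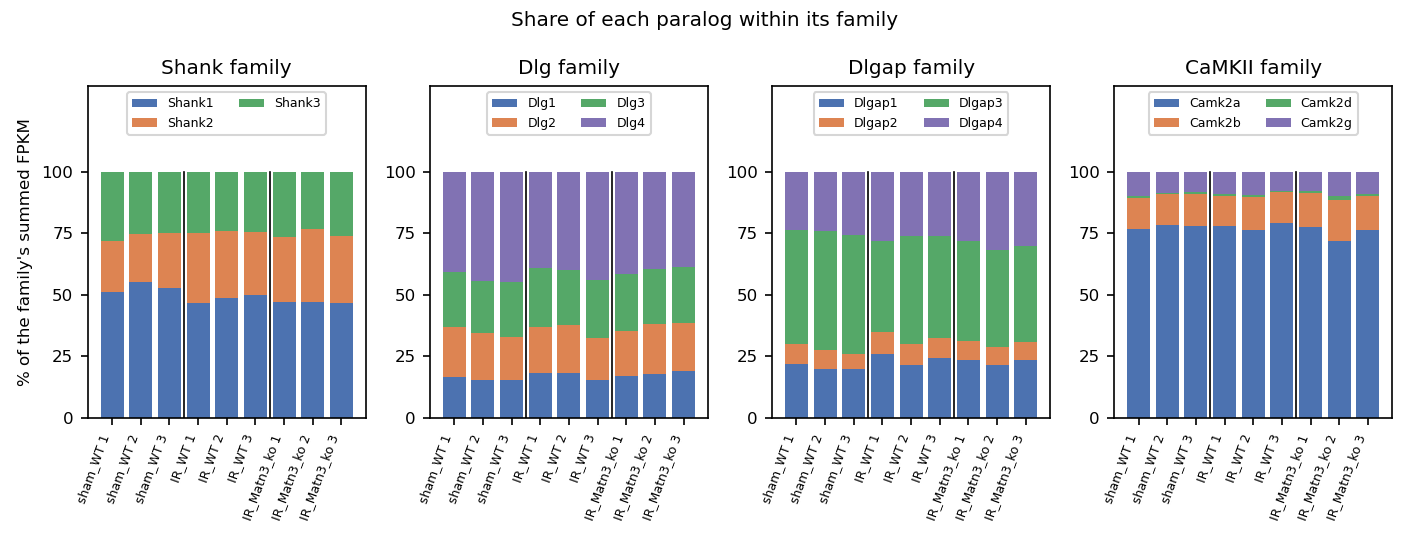
Share of each paralog (stacked colors, in % of the family's summed FPKM) in the Shank, Dlg, Dlgap and CaMKII families for each of the 9 libraries, with lines between sham_WT, IR_WT and IR_Matn3_ko. Shank2 takes 19.5 to 22.2% of its family in sham_WT and 25.6 to 29.6% in the ischemic libraries, and Dlgap3 takes 46.4 to 48.8% and 37.2 to 43.8%.

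Other genes of the same synapses moved in part alongside. Of 37 tested genes of the postsynaptic density outside the 34, 15 were lower and 2 higher in IR_Matn3_ko against sham_WT (backgrounds 10.7% and 11.8%), with a median of -0.25 (log2), and 3 were lower in IR_WT (background 1.52%). With the library set term, 7 of them were lower and 0 higher in IR_Matn3_ko (backgrounds 2.64% and 3.57%, for the lists that follow too). They included Camk2n1, an inhibitor of CaMKII (-0.70 in IR_WT and -0.96 in IR_Matn3_ko against sham_WT; edgeR adjusted p = 0.0311 and 0.00213), and Dgkz, a diacylglycerol kinase (-0.46 and -0.76; adjusted p = 0.0345 and 0.000889). In IR_Matn3_ko, the calcineurin subunit gene Ppp3ca (-0.68) and Sipa1l1 (-0.60) were lower as well.

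Of 24 glutamate receptor genes, 10 were lower and 1 higher in IR_Matn3_ko against sham_WT (4 and 0 with the library set term), beside the same 10.7% and 11.8% of all genes, with a median of -0.30, led by Gria2 (-0.64), Gria3 (-0.69), Grin2a (-0.60) and Gria4 (-0.63), and 1 was lower in IR_WT, Gria4 (-0.44, edgeR adjusted p = 0.0319). Among 25 further AMPA receptor partners and adhesion genes, 6 were lower and 3 higher in IR_Matn3_ko against sham_WT (backgrounds 10.7% and 11.8%). The count of higher genes was near its background, and the median was -0.20. In IR_WT against sham_WT, 1 was lower and 1 higher (backgrounds 1.52% and 2.54%). With the library set term 0 were lower and 1 higher in IR_Matn3_ko. The 3 higher ones in IR_Matn3_ko without that term included Cacng5 (1.82) and the activity-regulated pentraxin Nptx2 (1.64). In IR_Matn3_ko against IR_WT, 0 genes of these lists passed in edgeR, where 0 of all 17247 genes passed.

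Marker genes of cell types moved as well, in part. In IR_Matn3_ko against sham_WT the backgrounds are again 10.7% lower and 11.8% higher, and 2.64% and 3.57% with the library set term. Of the 12 pan-neuronal markers, 7 were lower in IR_Matn3_ko against sham_WT with a median of -0.33, beside the -0.32 of the 34 members, and 2 were lower with the library set term, beside 4 members. Excitatory neuron markers were lower for 2 of 9 genes (median -0.21), inhibitory neuron markers for 0 of 7 (median -0.26) and striatal neuron markers for 3 of 9 (median -0.49). Glial markers were lower for 3 of 8 astrocyte genes (median -0.56), 4 of 8 oligodendrocyte genes (median -0.78) and 3 of 5 genes of oligodendrocyte precursors (median -0.48), and microglial markers were higher for 7 of 10 and lower for 1. With the library set term, the excitatory median was -0.016 and the inhibitory median -0.40, with 0 lower in each list. In that fit 1 striatal, 1 astrocyte, 3 oligodendrocyte and 3 precursor markers were lower. Microglial markers were then higher for 3 and lower for 1. In IR_WT against sham_WT, 5 of 8 oligodendrocyte markers were lower (median -0.75, background 1.52%). There 0 of the excitatory, inhibitory, striatal, astrocyte and precursor markers passed. The part of these cell types in the members' values was not tested.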

How the data were processed

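The members, roles and gene lists were chosen with earlier results of these data known. Polyadenylated RNA of 9 mice was sequenced from libraries with strand marks and molecular identifiers, per the labels' protocols. The authors deposited 1 table with raw counts and FPKM values per gene and library, per the file headers; the deposited counts are whole and unscaled, and the deposited FPKM values are relative to gene length and mapped fragments. The tools HISAT2 2.0.4, StringTie 1.3.4d, cutadapt 1.9, edgeR, DESeq2 and UMI-tools were listed without a role, along with the human build GRCh38, per the submitters' processing notes. The coordinates of all 34 members equal those of the mouse annotation of GRCm38. Use of the strand or of the molecular identifiers in counting is not given in any source used here; genes that share exons are uncertain.

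Groups and replicate numbers came from the sample titles; the design text states separate mice. The 17247 genes reaching 0.5 FPKM in 3 or more libraries were tested in edgeR 4.0.16 (R 4.3.3) on the counts: TMM scaling, 1 model with a mean per group over 9 libraries, 6 residual degrees of freedom, quasi-likelihood test, Benjamini-Hochberg adjustment at 0.05. CPM values are TMM-scaled. Alternatives used DESeq2 1.42.0, limma 3.58.1 on log2(FPKM + 1), log2(FPKM + 0.1), log2(TPM + 1) and quantile-normalized log2 CPM, no scaling, no filter, a filter of 2 FPKM, the compared groups alone, a replicate block, a library set term and each library left out. The planned limit of 10 CPM for the library set separated nothing, as 9 of 9 libraries exceeded it, so 50 CPM of small intestine markers was used, chosen after seeing the data. All members are described. Full values are given for those past the threshold, those with the highest FPKM of each role, and others chosen after their values were seen. Of the other lists, up to 4 genes with the smallest adjusted p are named; Homer1, Cacng5 and Nptx2 were also chosen after their values were seen. No library repeated another of its own group: chi-square values per degree of freedom between replicates were 23.8 to 80.9, above sampling noise. Libraries of different groups were not compared in this way. On simulated counts for 17247 genes, edgeR recovered 65, 63 and 64 of 100 genes changed 2-fold and 94, 90 and 92 of 100 changed 4-fold, with 8, 7 and 7 false calls, for IR_WT against sham_WT, IR_Matn3_ko against IR_WT and IR_Matn3_ko against sham_WT. The members changed by less than 2-fold in the edgeR fit without the set term, and no library set was simulated.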

Additional observations from a re-analysis of the deposited data

How the results depend on the processing

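No member past the threshold with all 9 libraries changed sign in any alternative or in any fit without 1 library. Lrfn2 (0.17 for IR_Matn3_ko against sham_WT) passed as higher at 0.60 without sham_WT replicate 3 alone and was at -0.06 without sham_WT replicate 1. Dlgap1 in the same comparison passed as lower in DESeq2 (-0.25) and without the library labelled IR_Matn3_ko 2 (-0.31) but was at 0.03 with quantile normalization. For IR_WT against sham_WT, 1 member was lower; DESeq2 gave 3, and 0 passed with limma on log2(FPKM + 1), log2(FPKM + 0.1) or log2(TPM + 1), without scaling factors or without the filter, and 0 to 4 without single libraries (4 without the library labelled IR_Matn3_ko 2). The members' median of -0.15 was -0.042, -0.044 and -0.027 on those limma scales and -0.25 with the library set term. Of all genes, 263 were called lower, and 143, 124 and 91 on those limma scales. They were 702 in DESeq2, 155 without scaling factors, 108 without the filter and 63 to 445 without single libraries. The 701 genes called in all became 1664 in DESeq2, 418 without the filter and 407 with the set term, and 242 to 996 without single libraries. For IR_Matn3_ko against IR_WT, 0 members and 0 genes passed; DESeq2 gave 2 members and 668 genes, the same limma scales 38, 15 and 25 genes, quantile normalization 5, the set term 34, and fits without single libraries 0 to 61.

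For IR_Matn3_ko against sham_WT, the 14 lower members became 7, 7 and 5 on the limma scales, 7 without scaling, 9 with quantile normalization, 4 with the set term and 8 to 15 without single libraries, with the lowest count without sham_WT replicate 2. Higher members were 1 in DESeq2, 2 on each limma scale and without scaling, 1 with quantile normalization and 0 to 1 without single libraries. The median of -0.32 was -0.19, -0.20, -0.15, -0.18 and -0.20 in the same order and -0.50 with the set term. Genes called lower in all were 1850, and 1245, 1240, 970, 1160 and 1901 in that order, with 1042 to 2002 without single libraries. Genes called higher in all were 2037, and 3159, 3279, 3376, 3494 and 1922 in that order. Of all genes 3887 were called, 1071 with the set term and 2139 to 4182 without single libraries. The cause of these changes was not tested, beyond the smaller number of samples where libraries were left out.

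Deviations of same-numbered libraries from their group means had correlations of -0.125, -0.0241 and 0.0787 for IR_WT and sham_WT. For IR_Matn3_ko and IR_WT they were -0.24, 0.172 and -0.165. With 3 libraries a group, these values cannot show whether the numbers pair the mice. With the replicate block, 410 genes were called for IR_WT against sham_WT with 1 lower member (Dlgap3, adjusted p = 0.0482, in place of Shank3), 0 genes between the ischemic groups, and 3200 genes with 14 lower members for IR_Matn3_ko against sham_WT.

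With 3 libraries a group, tests of single genes had few residual degrees of freedom, and the library set is nearly nested in the groups. No IR_Matn3_ko library shared a set with a sham_WT library. The lowest member, Homer3, had 5.88 to 10.6 CPM, far above the limit that a count of 0 allows.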
